A study of Homo sapiens with 12 samples.

Results

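The GALNT genes encode polypeptide N-acetylgalactosaminyltransferases, Golgi enzymes that attach the first sugar of mucin-type O-glycans to serine or threonine. The genes described here are the 10 members GALNT1, GALNT2, GALNT3, GALNT4, GALNT6, GALNT7, GALNT10, GALNT11, GALNT12 and GALNT14. A peak was taken as a member's peak where it overlapped the RefSeq gene span by 1 bp or more, on either strand. This selected 17 of the 34365 peaks in the control list and 29 of the 28047 peaks in the NAT10 knockdown list. The genes were chosen by family, with earlier peak numbers from these same lists in view, those of GALNT2 among them, so the numbers below are a description and carry no test.

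The study mapped N4-acetylcytidine (ac4C), the acetylated cytidine that the enzyme NAT10 writes into RNA, in RBE cells, an established human intrahepatic cholangiocarcinoma line. Cells carrying a lentiviral short hairpin against NAT10 (sh-NAT10), kept under puromycin as a stable line, were set against cells with a control hairpin (sh-NC). Fragmented RNA was pulled down with an antibody to ac4C and sequenced together with input RNA, which gives 12 libraries in 4 groups of 3. The labels name polyA RNA as the molecule, while the protocol describes total RNA. The files analysed here hold 1 peak list per arm and no value per replicate, so the spread between replicates cannot be given for any number below. The read depth behind the lists is unknown. For a missing peak, lack of acetylation, a scarce transcript and too few reads cannot be told apart.

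O-glycosylation proceeds in steps. Initiating enzymes such as GALNT1 and GALNT2 act on bare peptide, follow-up enzymes such as GALNT4, GALNT7 and GALNT10 favour acceptors that already carry a sugar, and other enzymes then extend the chain into core structures capped by sialic acid or fucose. The family has many members with overlapping but distinct substrates, and altered initiation gives the truncated O-glycans for which many carcinomas are known.

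Of the 10 genes, 5 had a control peak, and 3 had a knockdown peak. Over all 20056 protein-coding genes, the share with a peak was 47.1% for the control and 42.0% for the knockdown list, and these member counts are no result beyond that background. GALNT2, GALNT7 and GALNT10 had peaks in both lists, and GALNT1 and GALNT4 in the control list only. GALNT3, GALNT6, GALNT11, GALNT12 and GALNT14 had 0 peaks in either list. Of the 5 genes with any peak, GALNT2 and GALNT10 had more in the knockdown than in the control list, 2 of 5 against 33.3% of the 10915 protein-coding genes with any peak. Fewer were found on the other 3, against 46.1% of those genes. A control peak without any knockdown peak on the gene applied to 2 of 5 members, against 26.3% of all such protein-coding genes. With 5 genes, these shares cannot be separated from their background.

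**Figure D1:**
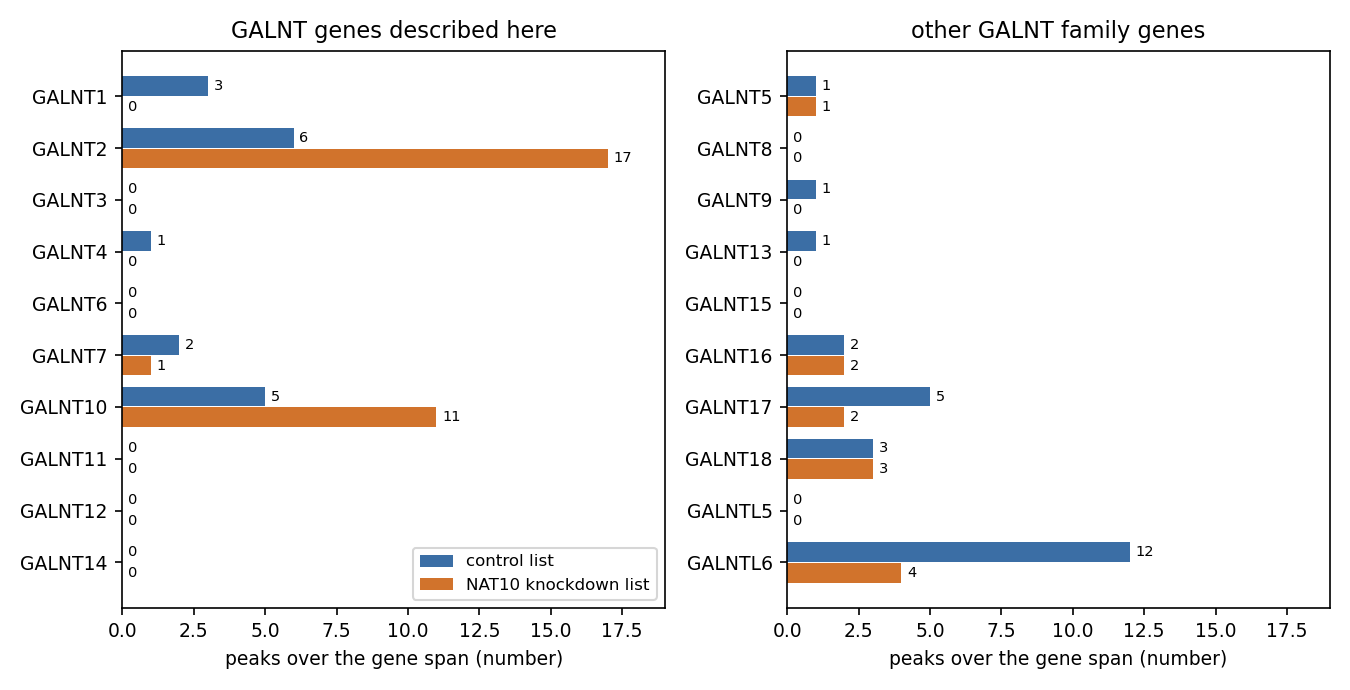
Number of peaks over the gene span (x axis) in the control list (blue) and the NAT10 knockdown list (orange), for the 10 GALNT genes described here (left) and the 10 remaining family genes (right). GALNT2 had 6 and 17 peaks and GALNT10 5 and 11, while GALNTL6 had 12 and 4.

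Among the 10 members, GALNT2 and GALNT10 together carried 11 of the 17 control peaks and 28 of the 29 knockdown peaks. The members' total in the knockdown list was 171% of that in the control list, where the whole list stood at 81.6%. Without GALNT2 the totals were 11 and 12 peaks, or 109%. The members other than GALNT2 and GALNT10 had 6 control peaks and 1 knockdown peak. The score is the authors' own value per peak, with a scale not given in the sources used here, and most peaks of both lists lie above a lower edge at 10. Counting only peaks with a score of 20 or more, the members had 4 control and 3 knockdown peaks, and no member had more knockdown than control peaks. These are 23.5% of the members' control peaks and 10.3% of their knockdown peaks, where 12.3% of all control and 14.9% of all knockdown peaks reach that score.

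The sequence that a file in hand can show beside these peaks is the stretch just upstream of GALNT7, because a control peak covers it whole. GALNT7 was the 1 member with a peak over its annotated start window, of 8 members with such a window in RefSeq. The window is printed 5′ to 3′ on the minus strand, the strand of that peak, at chr4:173168561-173168810 (GRCh38.p14, sequence from RefSeq). Its first printed base is the one before the GALNT7 start, and it leaves out the transcribed side of GALNT7. The window lies within GALNT7-DT, a long noncoding RNA gene on the minus strand (173131933 to 173169652). Capitals mark CCG, the trinucleotide that holds the known NAT10 sites of ribosomal and transfer RNA.

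GALNT7 upstream, minus strand: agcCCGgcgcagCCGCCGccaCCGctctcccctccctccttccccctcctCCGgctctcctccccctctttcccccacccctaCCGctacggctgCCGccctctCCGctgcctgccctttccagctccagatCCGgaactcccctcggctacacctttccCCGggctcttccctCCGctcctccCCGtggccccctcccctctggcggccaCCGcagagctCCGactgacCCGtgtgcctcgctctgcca

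These 250 bases hold CCG 15 times on the minus strand and 7 times on the plus strand. CCG was the only motif searched, on both strands. Of 35116 RefSeq windows of the same length and position, 77.7% hold CCG at least once on the strand opposite the gene and 77.3% on the strand of the gene. The median window has 3 matches on the opposite strand, and 5.93% of windows have as many as GALNT7 or more. The GALNT7 window is also rich in G and C, at 72.4% against a median of 58.0%, and the part of base composition in the match count was not tested. A match is a string of letters and shows no acetylated site.

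GALNT2, an initiating enzyme whose loss in humans causes a congenital disorder of glycosylation, spans 224 kb on the plus strand of chromosome 1 (230057789 to 230282122, hg38). It carried 6 control peaks and 17 knockdown peaks. No peak on GALNT2 overlapped another gene. The difference of 11 peaks was reached or passed by 7 of the 20056 protein-coding genes, GALNT2 included. Of the 20056 genes, 10915 had any peak. The GALNT2 numbers were in view when the genes were chosen, so this count is a description and no test. With a score of 20 or more, GALNT2 had 1 peak in both lists. Sorted by likeness in peak number, counting peaks in exactly 1 gene, the nearest protein-coding genes outside the family were SMG5 with 6 control and 14 knockdown peaks, then FAT1, MED13L and CNOT1, each with 6 and 13, and NUP210 with 9 and 16. This likeness is the summed difference in peak number over 2 lists. It was 3 for SMG5 and 4 for the others.

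Most GALNT2 peaks crowded at the end of the gene. In the last 3 kb the control list had 5 peaks, 4 on the plus strand and 1 on the minus strand, with scores from 10.35 to 12.59. The knockdown list had 11 there, 7 on the plus and 4 on the minus strand, with scores from 10.57 to 15.89. The plus-strand peaks of this stretch covered 325 bp for the control and 500 bp for the knockdown list, and the minus-strand peaks 50 and 125 bp. The peaks were short, with a median width of 50 bp in both lists, so the larger number in the knockdown list added few bases. A control peak from 230281711 to 230281885, 175 bp wide with a score of 11.93, faced 2 knockdown peaks of 75 bp with scores of 11.55 and 11.36 inside the same span.

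Upstream of the last 3 kb there were 1 control peak and 6 knockdown peaks. The control peak, from 230243322 to 230243421, was 100 bp wide with a score of 28.84, the highest on the gene in either list. A knockdown peak starts at the same base but runs for 2810 bp with a score of 10.69. The knockdown list had 5 further peaks in the body of the gene with no control counterpart. They were a 24282 bp peak from 230067324 with a score of 10.82, a 50 bp peak from 230178240 with a score of 24.75, a 150 bp peak from 230203140 with a score of 13.21, a 25 bp peak from 230236038 with a score of 13.20 and a 339 bp peak from 230236378 with a score of 11.39. The widest of them begins 86 bases after the annotated GALNT2 start at 230067238. In the control list the first plus-strand peak after that start lies 176 kb downstream.

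In all, 5 of the 6 control peaks on GALNT2 had a same-strand knockdown counterpart, and the remaining control peak, 25 bp wide, had a score of 10.35. Of the 17 knockdown peaks 6 had a control counterpart. The 11 without a counterpart had scores from 10.82 to 24.75 (median 13.20), and 9 of them scored below 15. Of these 11 peaks 3 lay on the minus strand, where no other RefSeq gene lies under them. With a score of 20 or more GALNT2 had 1 peak in both lists, the 28.84 peak in the control list and the 24.75 peak in the knockdown list, and these do not overlap.

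**Figure D2:**
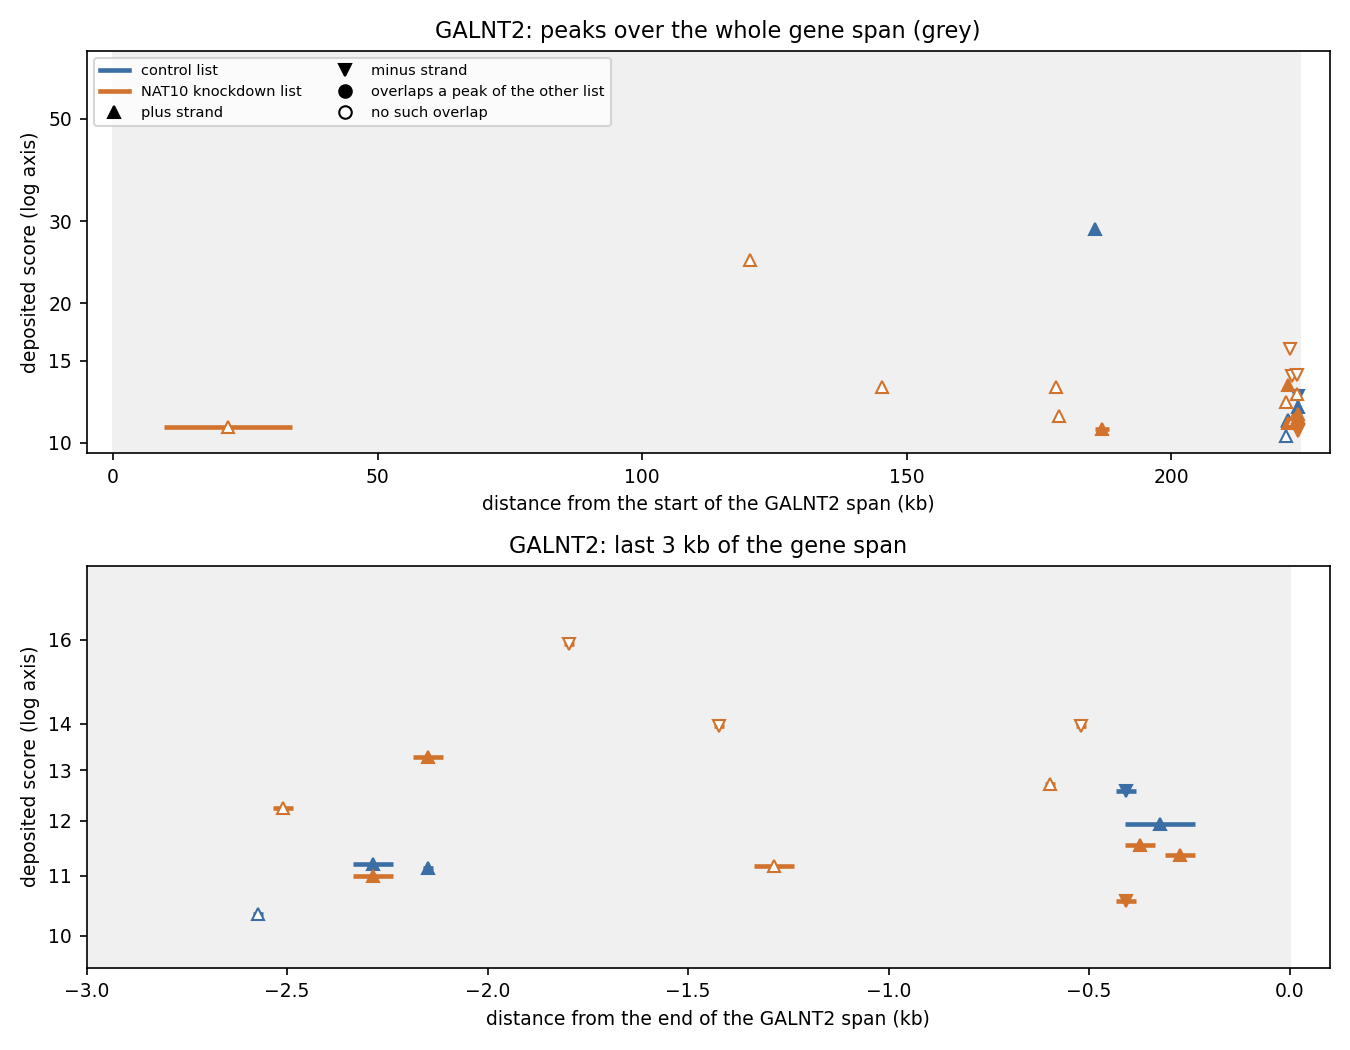
Deposited score (y axis, log scale) of each GALNT2 peak against distance from the start of the gene span (top, kb) and from its end in the last 3 kb (bottom, kb). Lines span each peak, triangles give the strand, and filled triangles overlap a peak of the other list; 11 of the 17 knockdown peaks (orange) are open, against 1 of the 6 control peaks (blue).

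GALNT1, the other broadly active initiating enzyme, spans 131 kb on the plus strand of chromosome 18 (35580922 to 35711834). The control list had 3 peaks there, all on the plus strand and within the last 10 kb. They were a 538 bp peak from 35702991 with a score of 10.02, a 225 bp peak from 35709684 with a score of 12.89 and a 150 bp peak from 35710309 with a score of 10.95. The knockdown list had 0 peaks on GALNT1, and its nearest peak lay 93.5 kb outside the span. All 3 control peaks also overlapped the long noncoding RNA gene LOC105372064, so none counted as a peak of GALNT1 alone. By all peaks over the span, GALNT1 had peaks in the control list only, while GALNT2 peaks were more numerous in the knockdown list. Counting only peaks in exactly 1 gene, GALNT1 had 0 in both lists, and GALNT2 had 6 and 17. With a score of 20 or more, GALNT1 had 0 and GALNT2 1 in both lists, so the contrast depends on the setting. Whether the difference by all peaks exceeds replicate spread cannot be tested from these lists.

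GALNT10, a follow-up enzyme, spans 230 kb on the plus strand of chromosome 5 (154190733 to 154420984). It had 5 control peaks and 11 knockdown peaks. A difference of 6 peaks or more in favour of the knockdown list was found on 74 protein-coding genes, GALNT10 included. This count too is a description and no test. All 5 control peaks had a same-strand knockdown counterpart, and 6 of the 11 knockdown peaks had a control counterpart. Counting only peaks in exactly 1 gene, GALNT10 had 2 control and 6 knockdown peaks.

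On the plus strand of GALNT10 the same sites recurred with different scores. Near the middle of the gene a 25 bp control peak from 154329704 scored 11.45, and the overlapping 50 bp knockdown peak scored 11.04. Further on, a 125 bp control peak from 154376286 scored 22.61, and a 150 bp knockdown peak from the same base scored 12.55. In the last 10 kb a control peak of 4033 bp from 154412893 with a score of 12.65 faced 2 knockdown peaks inside it, 25 bp wide with a score of 11.86 and 906 bp wide with a score of 15.54. The last plus-strand site had a 125 bp control peak with a score of 11.42 and a 50 bp knockdown peak with a score of 11.15. Here, as once on GALNT2, 1 control peak faced 2 narrower knockdown peaks, while the 2810 bp knockdown peak on GALNT2 is the reverse case in width.

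The plus-strand knockdown peaks of GALNT10 without a control counterpart numbered 4. A 75 bp peak from 154190913, with a score of 10.75, began 180 bases after the annotated start of the gene, whereas the first control peak on that strand lay 139 kb downstream. A 25 bp peak from 154298037 scored 12.87. Peaks of 4110 bp from 154376461 (score 13.02) and 5731 bp from 154380596 (score 11.08) followed directly on the 150 bp peak shared with the control list. Thus GALNT2 and GALNT10 both had a knockdown-only peak that began close behind the annotated start, at 86 and 180 bases. These scored 10.82 and 10.75 but differ in width, at 24282 and 75 bp. The GALNT2 peak begins 9535 bp into the gene span, which reaches further upstream than the annotated start.

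The highest scores on GALNT10 belonged to the minus strand. A peak of 24717 bp, from 154409075 to 154433791, had the same coordinates in both lists, with a score of 29.23 for the control and 54.99 for the knockdown peak. It reaches 11910 bp into the end of GALNT10 and lies over SAP30L-AS1, a long noncoding RNA gene on the minus strand (154389769 to 154445822). A second minus-strand peak, of 33516 bp from 154356275, was in the knockdown list only, with a score of 22.56, and reaches the edge of SAP30L-AS1. These 2 knockdown peaks and the 1 control peak lie on the strand of the antisense gene, and their assignment to GALNT10 is uncertain. On the strand of GALNT10 itself there were 4 control and 9 knockdown peaks.

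**Figure D3:**
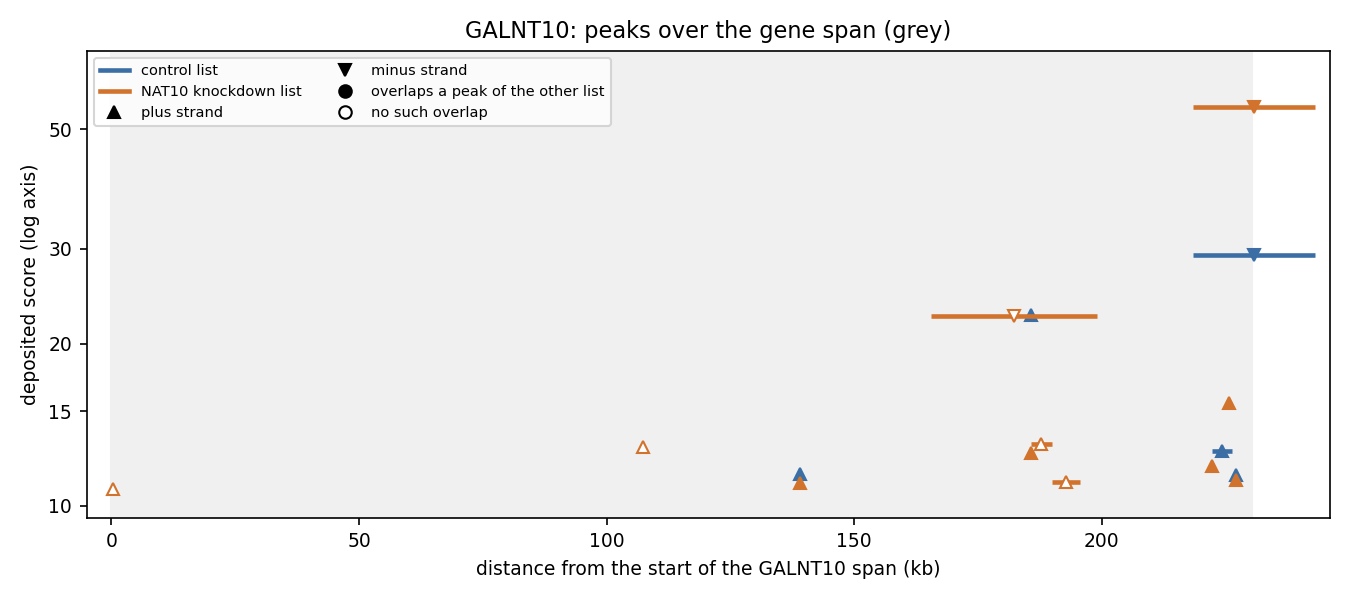
Deposited score (y axis, log scale) of each GALNT10 peak against distance from the start of the gene span (x axis, kb), control list blue and knockdown list orange. The minus-strand peak at the gene end (downward triangles) had the same coordinates in both lists and scores of 29.23 and 54.99, and open triangles mark the 5 knockdown peaks without a control counterpart.

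GALNT7, a follow-up enzyme that depends on sugars already placed, spans 155 kb on the plus strand of chromosome 4 (173168811 to 173323967). All of its peaks lay at the start, in contrast to the end-weighted peaks of GALNT1 and GALNT2. A 100 bp plus-strand peak, from 173168861 to 173168960, began 50 bases after the annotated start and had the same coordinates in both lists. Its control score was 26.47 and its knockdown score 11.90. The control list had a second peak on the minus strand, from 173168092 to 173168866, 775 bp wide with a score of 13.15, which covers the printed upstream sequence. Only 56 bp of it lie inside the GALNT7 span. All GALNT7 peaks of both lists also overlap GALNT7-DT, the divergent long noncoding RNA gene on the minus strand, so GALNT7 had 0 peaks in exactly 1 gene. Just outside the rule, the nearest peaks to the GALNT7 span lay at 8.93 kb in the control list and 8.98 kb in the knockdown list.

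GALNT4, a follow-up enzyme, is the shortest gene of the set, at 5385 bp on chromosome 12 (89519412 to 89524796). It had 1 control peak, 75 bp wide on the minus strand from 89524158, with a score of 11.24, and 0 knockdown peaks. GALNT4 lies within the span of POC1B, a gene for a centriole protein that shares a readthrough transcript with it, and the peak overlaps that gene too. POC1B had 1 peak in both lists.

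The 5 genes without peaks cover different roles. GALNT3 protects the phosphate hormone FGF23 from cleavage, GALNT6 has been studied in carcinomas for its action on fibronectin, GALNT11 acts on Notch, GALNT12 is an enzyme of the digestive tract, and GALNT14 is known from work on death receptor glycosylation. The nearest control peaks lay 59.4 kb from GALNT3, 110 kb from GALNT6, 13.9 kb from GALNT11, 29.3 kb from GALNT12 and 96.3 kb from GALNT14. In the knockdown list these distances were 137, 105, 26.8, 11.5 and 96.3 kb. These genes span 47.1 kb (GALNT3), 40.4 kb (GALNT6), 96.7 kb (GALNT11), 42.4 kb (GALNT12) and 252 kb (GALNT14). The genes with peaks span 131 kb (GALNT1), 224 kb (GALNT2), 5.38 kb (GALNT4), 155 kb (GALNT7) and 230 kb (GALNT10). The part of gene size was not tested. A gene without a peak may still be expressed and may still carry ac4C below the threshold of the caller.

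The members' peaks were compared in score where they overlapped between the lists on the same strand. There were 13 such pairs, 6 on GALNT2, 6 on GALNT10 and 1 on GALNT7. The control score was the higher in 10 pairs and the knockdown score in 3. Over all 17200 such pairs of the lists the control score was the higher in 46.1%. The members' pairs rest on 11 control peaks, since 2 of these peaks enter 2 pairs each, and pairs on 1 gene are not independent. The widest gaps in favour of the control list were on GALNT2 (28.84 and 10.69), GALNT7 (26.47 and 11.90) and GALNT10 (22.61 and 12.55), all 3 on the plus strand. In each of these 3 pairs the control and knockdown peaks begin at the same base. Their control and knockdown widths are 100 and 2810 bp on GALNT2, 100 and 100 bp on GALNT7, and 125 and 150 bp on GALNT10. The GALNT2 scores thus belong to peaks of very unlike width. The widest gap in favour of the knockdown list was the minus-strand peak over SAP30L-AS1. The pairs named here were picked for their gaps, which are a description only. The 24.75 peak, the strongest knockdown peak on GALNT2, has no control counterpart and enters no pair. Scores of separate lists can differ in scale with depth, and this was not tested. The median score of all control peaks was 12.17 and that of all knockdown peaks 12.37.

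**Figure D4:**
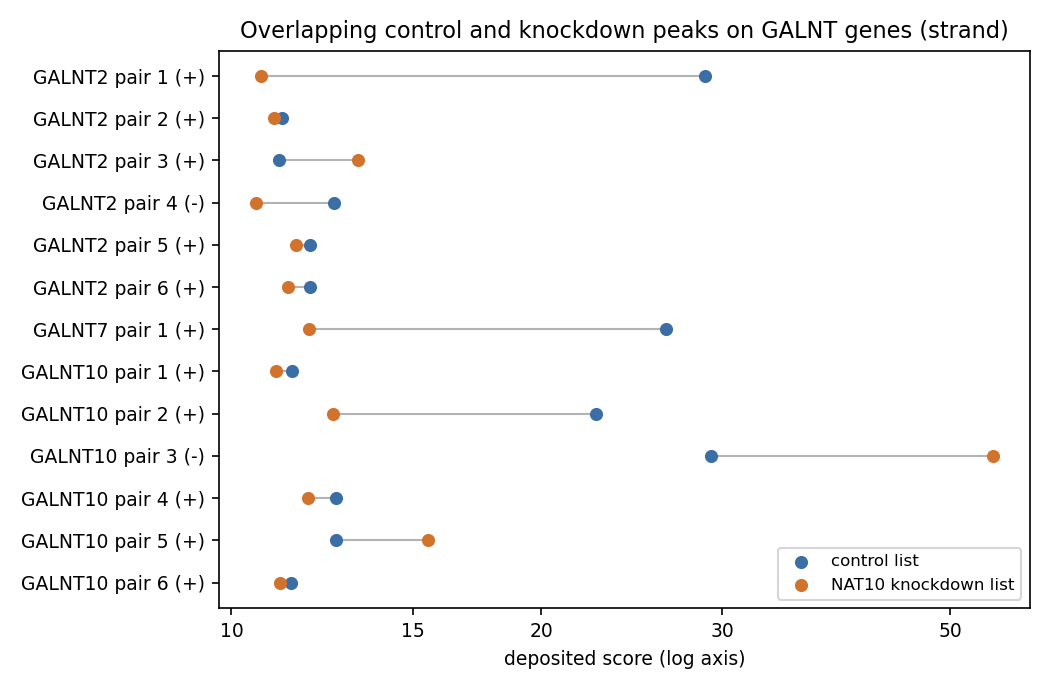
Deposited scores (x axis, log scale) of the 13 overlapping pairs of control (blue) and knockdown (orange) peaks on GALNT2, GALNT7 and GALNT10, in genome order within each gene, with the strand in parentheses. The control score is the higher in 10 pairs, and the minus-strand GALNT10 pair has scores of 29.23 and 54.99.

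Over the members as a set, 11 of 17 control peaks had a knockdown counterpart (64.7%, 95% Wilson interval 41.3 to 82.7), where the whole list stood at 45.5%. Of the 29 knockdown peaks 13 had a control counterpart (44.8%, 28.4 to 62.5), where the whole list stood at 55.6%. Both intervals include the value of the whole list. They cover counting error only and treat peaks as independent, although several lie on the same transcript. Control widths ran from 25 to 24717 bp (median 125 bp) and knockdown widths from 25 to 33516 bp (median 75.0 bp). Among peaks up to 1000 bp wide, 9 of 15 control peaks (60.0%, 35.7 to 80.2) and 14 of 23 knockdown peaks (60.9%, 40.8 to 77.8) had their midpoint in the last 10% of the gene span. The 2 shares lay close together, but their intervals are wide and the genes behind them differ. All of these end peaks belonged to GALNT1, GALNT2 and GALNT10. In the last 10 kb GALNT1 had 3 control and 0 knockdown peaks, and in the last 3 kb GALNT2 had 5 and 11. The share over all narrow peaks of the lists is not given here, so end position is not shown as particular to these genes. Exon structure was not analysed here.

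The remaining 10 genes of the GALNT family had 25 control and 12 knockdown peaks, and 4 of the 7 with any peak had fewer in the knockdown list, 0 more and 3 as many. GALNTL6 had 12 and 4, GALNT17 5 and 2, GALNT9 1 and 0, and GALNT13 1 and 0. GALNT16 had 2 in both lists, GALNT18 3 in both and GALNT5 1 in both. Counting only peaks in exactly 1 gene, GALNT16 had 0 and 1, GALNT18 1 and 2, and GALNT5 0 in both. By that count GALNTL6 had 8 and 2, GALNT17 3 and 0, GALNT13 1 and 0, and GALNT9 0 in both. The GALNTL6 peaks were mostly wide, up to 236116 bp, and 4 of them had the same coordinates in both lists. GALNT9, GALNT13 and GALNT17 are known for expression in the brain. Among markers of other cell types, 8 neuronal genes had 87 control and 7 knockdown peaks. The 4 astrocyte genes had 16 and 1, and the 4 oligodendrocyte genes 16 and 0. Of these, GRIN1, GFAP, MOG and MOBP had 0 in both lists. The 6 hepatocyte markers had 2 control and 2 knockdown peaks, and the 6 stromal markers 4 and 1. The part of the shift in neuronal and glial markers in the counts of the brain GALNT genes was not tested. Of the biliary markers 8 of 10 had a peak in both lists, 43 and 45 peaks in all, among them KRT7 with 11 and 10 and KRT19 with 5 and 4, while EPCAM had 0.

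The enzymes that build on the first sugar had similar peak numbers in the lists. Of 11 core and branching genes, 7 were in the control and 5 in the knockdown list, with 12 and 14 peaks in all. C1GALT1, which makes the core 1 structure, had 1 control and 3 knockdown peaks, and its chaperone C1GALT1C1 had 3 and 2. The galactosyltransferase B4GALT5 had 2 and 4, with highest scores of 31.25 and 53.85, and B4GALT1 had 3 in both. B3GNT3, which extends core 1, had 1 and 2. B4GALT4 had 1 and 0, the control peak scoring 10.19. GCNT1, a core 2 branching enzyme, also had 1 and 0, but that peak is listed with a score of 0 and overlaps another gene. Of 12 capping genes, 6 were in the control and 5 in the knockdown list, with 15 and 18 in all. Both counts include ST6GALNAC1, with 1 control peak scoring 3.70 and 1 knockdown peak scoring 0.00, each overlapping another gene. The sialyltransferases ST6GALNAC4 (5 and 7), ST6GALNAC6 (3 and 4), ST3GAL1 (2 and 3) and ST3GAL2 (3 and 3) led this list, and all peaks of ST6GALNAC4 and ST6GALNAC6 also overlapped another gene. ST6GALNAC3 had 1 control peak and 0 knockdown peaks, and the 4 genes FUT2, FUT3, FUT4 and CHST4 had none.

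Genes that supply the sugar donor UDP-GalNAc had 11 control and 7 knockdown peaks. GFPT1, the entry enzyme of the hexosamine pathway, had 5 and 3, with highest scores of 11.22 and 54.17, and its paralog GFPT2 had 3 and 0. GNPNAT1 had 1 and 2, UAP1 1 and 1, and the UDP-galactose transporter SLC35A2 0 and 1. Among acceptors, 6 of 16 genes had peaks, the same 6 in both lists, with 31 and 30 peaks. The adhesion receptor CD44 had 7 and 7, the proteoglycan SDC1 5 and 7, and the sialomucin PODXL 4 and 7. The complement regulator CD55 had 3 and 1. Of the 11 mucin genes, MUC1 had 2 control peaks and 1 knockdown peak, and MUC2, MUC4, MUC5AC, MUC5B, MUC6, MUC13, MUC15, MUC16, MUC20 and MUC21 had none.

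Other glycosylation pathways served for comparison. The enzymes of other kinds of O-glycosylation, most but not all of them starters, had 31 control and 22 knockdown peaks over 15 genes. Of these genes 9 were lower and 4 higher in the knockdown list. OGT, the nuclear and cytosolic O-GlcNAc transferase, had 10 and 3, and OGA, which removes that sugar, 4 and 3. The O-mannosyltransferases POMT1 and POMT2 had 4 and 6, and 1 and 3. POFUT1, XYLT1 and POMGNT1 were among the genes with control peaks only, with 2 each, as was POGLUT1 with 1. Both POMGNT1 peaks also overlapped another gene. TMTC4 and TMTC3 had knockdown peaks only, with 3 and 2. The 19 genes of N-glycan assembly had 43 and 44 peaks, among them RPN2 with 9 and 5, STT3A with 6 and 6, STT3B with 4 and 7, and ALG9 with 5 and 6. MGAT2 (3 and 0) and OST4 (2 and 0) had control peaks only, and ALG5, ALG11 and ALG12 had 1 knockdown peak each and no control peak. The COG complex, which holds glycosylation enzymes in the Golgi, had 16 and 14 peaks, with COG5 at 7 and 1, COG4 at 6 and 2, COG1 at 1 and 4 and COG3 at 1 and 3. COG2 and COG8 had 1 knockdown peak each and no control peak.

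Over these 8 lists of 100 genes, 60 appeared in the control list with 184 peaks and 53 in the knockdown list with 161. Over all protein-coding genes, 47.1% had a control and 42.0% a knockdown peak. Of the 60 genes, 15 had control peaks only, against 26.3% of all protein-coding genes with a control peak. Knockdown peaks only were found on SLC35A2, TMTC3, TMTC4, ALG5, ALG11, ALG12, COG2 and COG8. Of the 68 with any peak, 27 had more and 30 fewer in the knockdown list. Among all protein-coding genes with any peak the shares with more and with fewer were 33.3% and 46.1%. No list had a knockdown excess as large as that of GALNT2 alone, whose numbers were in view when the genes were chosen. The other GALNT genes differed in the opposite direction in total (25 and 12), though not each gene did. None of these differences has a replicate check.

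**Figure D5:**
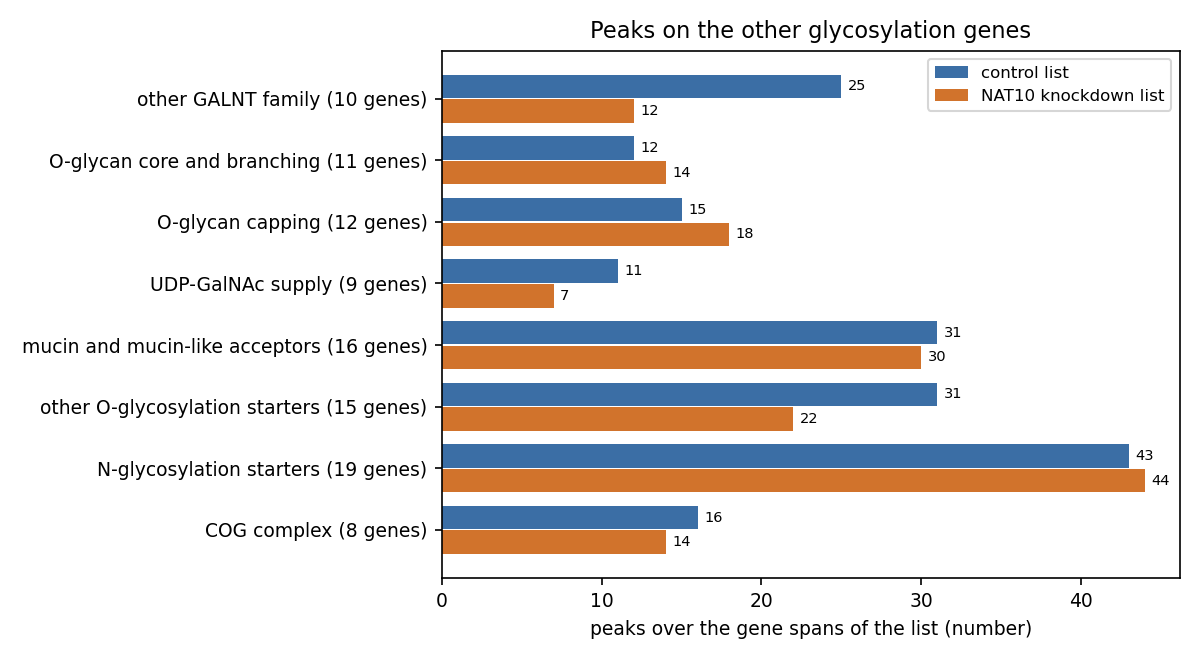
Number of peaks over the gene spans (x axis) of 8 lists of glycosylation genes in the control list (blue) and the knockdown list (orange). The other GALNT genes have 25 and 12 peaks, while the core, capping, acceptor and N-glycan lists differ by at most 3 peaks.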

How the data were processed

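Per the submitters' processing notes, reads were handled with fastp 0.20.1 and Bowtie2 2.4.1 on the genome build hg38. The peak-calling program, its cutoff, any input subtraction and any replicate pooling are steps not given in the sources used here. Files as deposited hold 1 list per arm, and the score of each peak is the authors' own, on an unstated scale. The control list was matched by its name, and the other list was taken as the knockdown list. Peaks were assigned to RefSeq gene spans (GRCh38.p14) by an overlap of at least 1 bp on either strand, and shared peaks by at least 1 bp on the same strand. A peak is written as 1 block, so a wide peak can include introns. Gene strands came from RefSeq start windows, or for genes without one, such as GALNT4, from most of their peaks. Python 3.11.15, NumPy 2.4.6, pandas 2.3.3, SciPy 1.17.1 and matplotlib 3.10.9 were used, and the overlap code was tested on simulated data. The members, gene lists and tests were chosen with earlier results of these data known. The genes named were all 10 members, the genes with the most peaks or with peaks in 1 list only in each pathway list, and the 5 genes closest to GALNT2 in peak number. Alternatives covered overlap, score, list length, width, strand and merging. Some genes that the rule covers are not reported here.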

Additional observations from a re-analysis of the deposited data

How the results depend on the processing

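No paired analysis was possible because the deposited lists hold no value per replicate, and leaving out a replicate could not be run for the same reason. Of 76 values under other settings, 60 stayed within 1.5 times the count or within the 95% interval of the share, and 16 did not. Counting only peaks in exactly 1 gene gave 8 control peaks in place of 17. With a score of 20 or more the members had 4 control and 3 knockdown peaks, 0 members had more knockdown than control peaks, and the pathway lists had 18 genes with a control peak, 19 with a knockdown peak and 12 with more knockdown peaks. At that score 100% of 4 control peaks were shared, and 0% of 3 narrow control peaks and 0% of 1 narrow knockdown peak lay in the last 10% of the gene. Requiring an overlap of 50% of both peaks lowered the shared part to 35.3% of control and 20.7% of knockdown peaks. Without GALNT2, a setting added after seeing the data, 11 control and 12 knockdown peaks remained. GALNT2 and GALNT10 had more knockdown than control peaks under every setting for peak counts except the score of 20, with lists of equal length (5 and 17, and 5 and 11), on the strand of the gene (5 and 13, and 4 and 9) and after merging peaks within 100 bp (5 and 14, and 5 and 9) among them. Read depth is unknown, so how far it limits the lists was not tested.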
